A study of Mus musculus with 6 samples.

Results

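The 6 genes described here encode the rod G protein and its effector enzyme: the transducin subunits Gnat1 (alpha), Gnb1 (beta) and Gngt1 (gamma), and the rod phosphodiesterase subunits Pde6a and Pde6b (catalytic) and Pde6g (inhibitory). They were chosen by name, with earlier results of these data known, as the parts of the light-activation step that follow the visual pigment. All were found among the 52143 genes of the deposited gene table. All 6 passed the filter on low counts that left 12815 genes to test. RNA was sequenced from rods of the mouse retina in 6 libraries, 3 in each of 2 groups. Plasmids were electroporated into the mice in vivo on postnatal day 0, and rods positive for EGFP were flow-sorted on postnatal day 10. The control group received the pLKO.1-Scrambled vector and the other group, whose genotype label is Jun_KD, a vector expressing a short hairpin RNA (shRNA) to Jun; the concentration was 2.5 µg/µl for either, in 0.4 µl. Both groups also carried an Nrl promoter-EGFP reporter vector at 1.5 µg/µl. The reporter thus defined the sorted cells by the activity of the promoter of a rod transcription factor gene. One hairpin is named, and neither strain nor sex of the mice is given. Nothing in the labels ties a library to an animal or a litter, so p-values measure only how far these libraries spread, which may be in part technical.

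In a rod, light-activated visual pigment makes the transducin alpha subunit exchange GDP for GTP and leave its beta-gamma partner. The GTP-bound alpha subunit then draws the inhibitory gamma subunit away from the catalytic alpha-beta pair of phosphodiesterase 6 (PDE6), which hydrolyses cyclic GMP and lets the cyclic nucleotide-gated channels close. Gnat1, Gngt1, Pde6a, Pde6b and Pde6g are hallmarks of mature rods, whereas Gnb1 is used by many cell types. Cones build the same cascade from paralogues, Gnat2, Gnb3, Gngt2, Pde6c, the cone catalytic subunit, and Pde6h, the cone inhibitory subunit.

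Some facts on the libraries as a whole stand beside every value that follows. Jun RNA, the target of the hairpin, stood at 6.46, 5.86 and 7.16 CPM (counts relative to the library total, scaled by TMM, the trimmed mean of M values) in the controls and at 1.80, 17.6 and 19.3 CPM in the other group, with a log2 fold change of 0.99 by edgeR (SE 1.44, adjusted p = 0.764). Since Jun RNA was not lower on that day, that group is called here the libraries labelled Jun knockdown, or the labelled libraries, and each direction contrasts libraries by label. Controls held 32150100 to 105801000 counts and the labelled libraries 13211300 to 13998400, so depth and group cannot be told apart. The share of transcript counts of protein-coding genes assigned to transcripts with a retained intron was 3.23% ± 0.405 in controls and 8.49% ± 0.990 in the labelled libraries (SD, n = 3 each), with an exact permutation p of 0.1, which is the smallest that 3 against 3 libraries allow. Summed markers of microglia stood at 853 to 1146 CPM in controls and 1.78 to 5.89 CPM in those labelled Jun knockdown (4 of 10 tested passed as lower, and 9 at an unadjusted p under 0.05, 9 with DESeq2 and 9 with limma-voom). Those of Müller glia stood at 2570 to 3331 and 618 to 695 CPM (0 of 11 passed, 4 at an unadjusted p under 0.05, 3 with DESeq2 and 2 with limma-voom), and those of vessels and blood at 195 to 349 and 20.3 to 66.1 CPM (3 of 7 passed as lower, 5 by each of those other counts, Hba-a1 at 0 in the labelled libraries). Cone markers, at 2896 to 5262 and 2949 to 3411 CPM (Rxrg at 0 in the labelled libraries), overlapped, as did bipolar markers, at 1557 to 2093 and 1302 to 2230 CPM. The bipolar sum holds Otx2, which photoreceptors also use; without it, a choice made after its values were seen, it was 928 to 998 and 1093 to 1847 CPM and did not overlap. Among 12 bipolar markers, Prkca passed as higher (16.1 to 218 CPM, adjusted p = 0.0468) and Sebox as lower (109 to 0.426 CPM, adjusted p = 0.0124, edgeR for both). With all libraries thinned to the smallest total, 3 of the 6 genes passed as lower, where 0.890% of all tested genes did. Beyond that, the part that depth, retained introns and these other cell types play in the values of the 6 genes was not tested.

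Of the 3 members with an upstream window shown here, Gngt1 and Pde6b are rod genes whose differences had opposite signs, and Gnb1 is the broadly used subunit. No window is shown for Gnat1, Pde6a or Pde6g, and none was available for Gnat1 and Pde6g. The matches below therefore do not describe the members as a set. The windows come from RefSeq (GRCm38.p6), lie on the plus strand and are read 5′ to 3′. Capitals mark matches to TGANTCA, the consensus of AP-1, the factor family that includes Jun, and to TGCTGA, a half-site of the rod factor NRL. That of Gnb1 is chr4:155491111-155491360, that of Gngt1 is the 34 bases at chr6:3993758-3993791 just before the deposited gene start, and that of Pde6b is chr5:108388123-108388372.
Gnb1: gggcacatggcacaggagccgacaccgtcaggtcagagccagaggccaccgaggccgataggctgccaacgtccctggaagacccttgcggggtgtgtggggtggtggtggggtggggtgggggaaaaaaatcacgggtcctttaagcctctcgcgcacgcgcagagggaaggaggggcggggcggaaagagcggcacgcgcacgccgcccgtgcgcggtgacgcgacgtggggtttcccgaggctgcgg
Gngt1: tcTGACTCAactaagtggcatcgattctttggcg
Pde6b: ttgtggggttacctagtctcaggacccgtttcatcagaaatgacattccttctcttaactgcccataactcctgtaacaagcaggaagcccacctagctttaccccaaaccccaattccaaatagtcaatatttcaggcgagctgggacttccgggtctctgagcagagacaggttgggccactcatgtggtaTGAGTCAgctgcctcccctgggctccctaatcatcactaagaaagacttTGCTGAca
Both strands of the 250 bases before each RefSeq start were searched for the AP-1 consensus TGANTCA, for the NRL half-site TGCTGA and for TAATCC, a core motif of the photoreceptor factor CRX, and no matches overlapped. The Gngt1 match TGACTCA began 248 bases before the RefSeq start, which lies downstream of the deposited gene start, and a TAATCC match on the minus strand began 44 bases before it. The Pde6b match TGAGTCA began 57 bases before the RefSeq start and its TGCTGA 8 bases before. None of the 3 motifs was found in the Gnb1 window, which was 69.2% G and C against 49.6% for Pde6b. Among 32851 RefSeq windows of the same length, 6.75% held TGANTCA, 16.1% TGCTGA and 6.25% TAATCC. A match is a description of the letters and not a measured binding site.

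Across the cascade, 4 of the 6 genes fell in the labelled libraries (Gnat1, Gnb1, Pde6b and Pde6g), and 0 rose. By edgeR's quasi-likelihood test with Benjamini-Hochberg adjustment, 1.35% of the 12815 tested genes passed as lower and 0.32% as higher. At an unadjusted p under 0.05, 5 members were lower and 1, Gngt1, was higher, where 2159 of the 12815 genes were under it in either direction. With DESeq2 or limma-voom, 0 members passed as higher. In 5 members every labelled library lay below every control library, a pattern seen in 15.7% of all tested genes. The median log2 fold change of the 6 genes was -1.93, beside -0.12 over all tested genes. Other scalings moved that general median up by 0.15 (median of ratios), 0.39 (upper quartile) and 0.50 (library totals), and 3 members then passed, Pde6b being the one lost. With DESeq2 1 member passed, where 7.38% of genes passed as lower. With limma-voom 0 passed, where 2.46% of genes passed as lower. At an unadjusted p under 0.05 limma-voom had 2 members lower and 1 higher, where 2708 genes were under it in either direction. Without control replicate 3 the count was 2. With no filter 4 members passed as lower and 1 as higher, where 1.73% of genes passed as lower and 0.496% as higher, and with a replicate block 3 and 1, where 0.609% and 0.148% did.

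**Figure D1:**
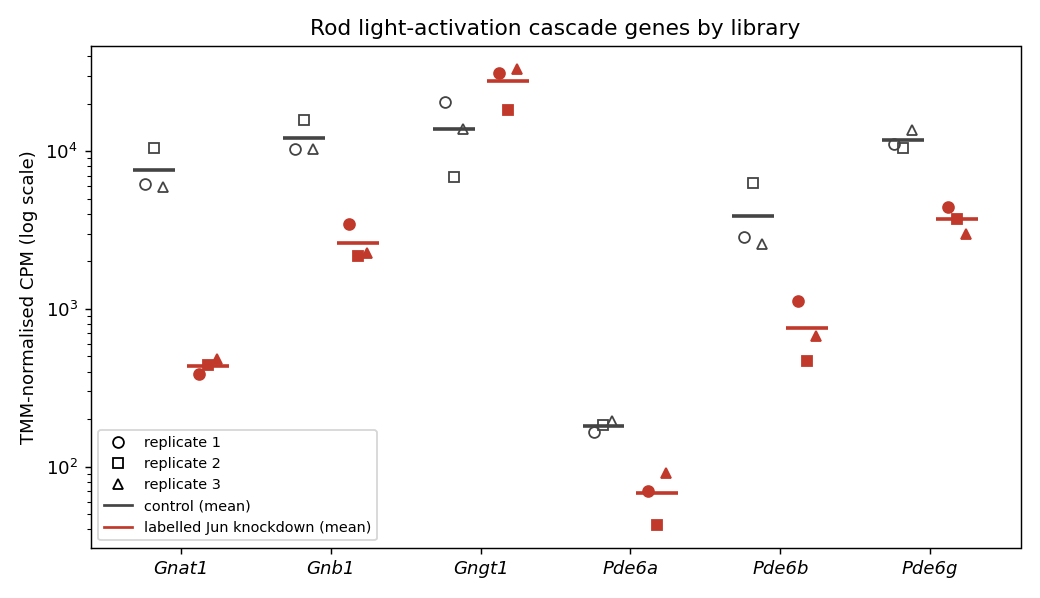
TMM-normalised CPM (log axis) of the 6 rod cascade genes in each of 3 control libraries (open grey symbols) and 3 libraries labelled Jun knockdown (filled red symbols), with symbol shape giving the replicate number and a bar the group mean. The groups are apart, with the labelled libraries lower, for every gene but Gngt1, whose control replicate 1 at 20419 CPM lies above labelled replicate 2 at 18331 CPM.

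Gnat1 encodes the rod transducin alpha subunit, the part that binds GTP and activates PDE6 (ENSMUSG00000034837, GRCm38 chromosome 9, 107674474 to 107679712, minus strand). It stood at 6187, 10504 and 5926 CPM in the controls and at 387, 440 and 479 CPM in those labelled Jun knockdown. The lowest control was thus far above the highest labelled library, and the 3 labelled libraries lay close together. By edgeR, Gnat1 fell by 4.11 on the log2 scale (SE 0.29) with an adjusted p of 0.000543, from 7539 ± 2571 to 436 ± 45.9 CPM (SD, n = 3 each), a 17.3-fold lower mean. By p it ranked 4 among all tested genes, and by mean CPM it went from rank 12 in controls to rank 294. In bulk libraries fewer cells that express a gene and less of its RNA per cell cannot be told apart. The call ended with limma-voom (adjusted p = 0.332, range over 17 alternatives 1.17e-49 to 0.332).

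Gnb1 encodes the beta subunit that carries Gngt1 and holds transducin alpha in its GDP-bound form (ENSMUSG00000029064, chromosome 4, 155491361 to 155559269, plus strand). Its controls stood at 10314, 15775 and 10255 CPM and the labelled libraries at 3429, 2163 and 2255 CPM, with no overlap. Gnb1 fell by 2.21 (SE 0.26, adjusted p = 0.00552, edgeR), from 12114 ± 3170 to 2616 ± 705 CPM (n = 3 each), a 4.63-fold lower mean. It remained among the most abundant RNAs, at rank 7 in controls and rank 17 in the labelled libraries. The call ended with DESeq2 (adjusted p = 0.0805) and limma-voom (adjusted p = 0.319, range over 17 alternatives 6.54e-27 to 0.319). Reads of Gnb1 may be shared with its processed pseudogenes, which the counting could split.

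Gngt1, the rod transducin gamma subunit, whose farnesyl group anchors the beta-gamma pair to the disc membrane (ENSMUSG00000029663, chromosome 6, 3993792 to 3997436, plus strand), had the opposite sign. It stood at 20419, 6894 and 13854 CPM in the controls and at 31308, 18331 and 33263 CPM in those labelled Jun knockdown. The groups overlapped, because labelled replicate 2 lay below control replicate 1. By edgeR the log2 fold change was 1.01 (SE 0.36) with an adjusted p of 0.204 and means of 13723 ± 6764 and 27634 ± 8116 CPM (n = 3 each), so the difference did not pass. As a share of library counts, with no scaling, the groups did not overlap, at 1.61%, 0.587% and 1.20% in the controls and 3.48%, 2.44% and 3.63% in the labelled libraries. With TMM scaling, every labelled library lay above every control in 12.6% of all tested genes. Library totals moved the general median up by 0.50, and the share of genes so apart on that scale is not given here. By mean CPM Gngt1 went from rank 5 in controls to rank 1 of all tested genes. The sign was positive under all 17 alternatives, from 0.70 to 1.50. It passed with no filter on low counts (adjusted p = 8.25e-08) and with a replicate block (0.0251), and over the alternatives the adjusted p reached 0.539.

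Pde6a, the catalytic alpha subunit (ENSMUSG00000024575, chromosome 18, 61220482 to 61289924, plus strand), was the least abundant member. It stood at 165, 183 and 195 CPM in the controls and at 70.1, 42.7 and 90.5 CPM in those labelled Jun knockdown, which did not overlap. The log2 fold change of -1.42 (SE 0.60, adjusted p = 0.283, edgeR) did not pass, nor did it under any of the 17 alternatives (adjusted p from 0.105 to 0.423). Means were 181 ± 15.2 and 67.8 ± 24.0 CPM (n = 3 each).

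Pde6b, the catalytic beta subunit, which pairs with the alpha subunit in the active enzyme (ENSMUSG00000029491, chromosome 5, 108388391 to 108432397, plus strand), stood at 2865, 6269 and 2573 CPM in the controls. In the labelled libraries it stood at 1127, 465 and 675 CPM, again with no overlap. It fell by 2.37 (SE 0.44, adjusted p = 0.0409, edgeR), from 3902 ± 2055 to 756 ± 338 CPM (n = 3 each), a 5.16-fold lower mean. This was the least firm of the 4 calls. It ended under 12 of 17 alternatives (adjusted p from 5.30e-13 to 0.271 over all 17), which included all 3 other scalings (0.0507, 0.0584 and 0.0632), DESeq2 (0.1035), limma-voom (0.271) and thinning to the smallest total (0.0598). It also ended with a replicate block (0.0979), without control replicate 1, 2 or 3 (0.115, 0.123 and 0.101) and without labelled replicate 2 or 3 (0.0964 and 0.119). The log2 fold change stayed between -2.99 and -1.84 throughout.

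Pde6g, the inhibitory gamma subunit that keeps the enzyme silent in the dark (ENSMUSG00000025386, chromosome 11, 120447605 to 120453500, minus strand), had the smallest SE of the 6. It stood at 11103, 10393 and 13641 CPM in the controls and at 4432, 3731 and 2996 CPM in those labelled Jun knockdown, with no overlap. Pde6g fell by 1.65 (SE 0.20, adjusted p = 0.00700, edgeR), from 11713 ± 1708 to 3720 ± 718 CPM (n = 3 each), a 3.15-fold lower mean. The call ended with DESeq2 (adjusted p = 0.205), with limma-voom (0.0815) and without control replicate 3 (0.0519), in a range over 17 alternatives of 5.35e-16 to 0.205.

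Summed over its 6 genes, the cascade held nearly the same mean share of unscaled library counts in both groups. Within it Gngt1 was higher and the other 5 were lower in the labelled libraries. The 6 genes summed to 4.03%, 4.26% and 4.01% of library counts among controls and to 4.53%, 3.35% and 4.34% in the labelled libraries. Means were 4.10% ± 0.137 and 4.07% ± 0.635 (SD, n = 3 each), a difference of -0.0246 percentage points (two-sided exact permutation p = 1). Its sign turned with small changes of the denominator or of the libraries, to 0.0667 with the transcript table, 0.139 as a share of protein-coding counts, 0.0546 without control replicate 2 and 0.338 without labelled replicate 2. Without Gngt1 the other 5 genes held 2.42%, 3.67% and 2.82% of all counts among controls and 1.05%, 0.910% and 0.709% in the labelled libraries. Those groups did not overlap (exact permutation p = 0.1, the smallest possible). TMM scaling gave another picture, with factors of 0.80 to 0.87 in controls and 1.10 to 1.35 in the labelled libraries. On that scale the 6 genes summed to 46444 to 51053 CPM in controls and 25173 to 40753 CPM in the labelled libraries, lower with no overlap. Whether the sum differed thus depended on the scaling.

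**Figure D2:**
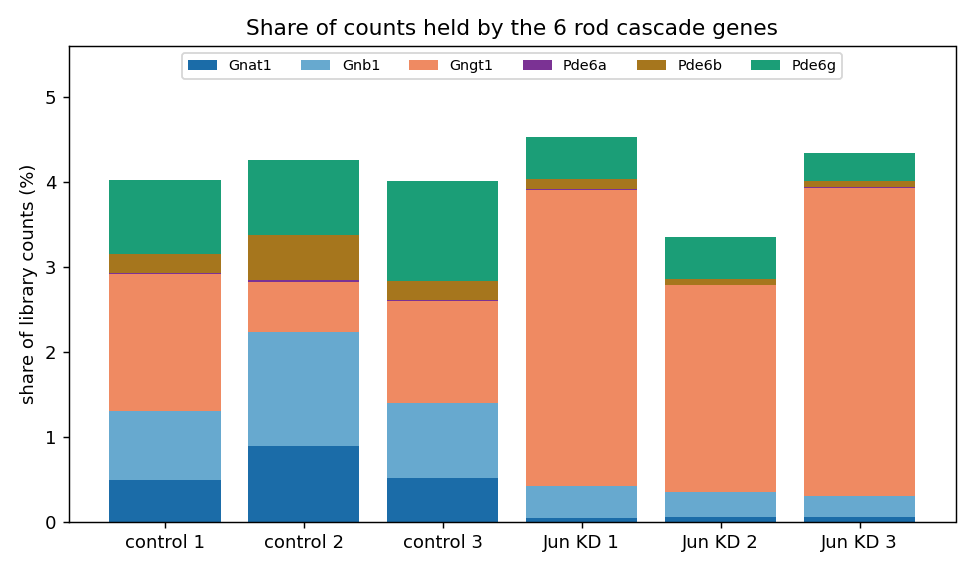
Share of all library counts (%) held by the 6 rod cascade genes in each library, stacked by gene, with 3 control libraries on the left and 3 libraries labelled Jun knockdown on the right. The stacks reach 4.01% to 4.26% in controls and 3.35% to 4.53% in the labelled libraries, while the Gngt1 block grows from 0.587% to 1.61% in controls to 2.44% to 3.63% in the labelled libraries.

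Within that sum the make-up differed. Gngt1 supplied 40.0%, 13.8% and 29.8% of the counts of the 6 genes in the controls and 76.8%, 72.8% and 83.7% in the labelled libraries. Gnat1 supplied 15.3% ± 4.95 in controls and 1.30% ± 0.408 in the labelled libraries (n = 3 each). Gnb1 went from 24.6% to 7.56%, Pde6g from 24.0% to 11.1%, Pde6b from 7.90% to 2.10% and Pde6a from 0.370% to 0.190%, as means.

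**Figure D3:**
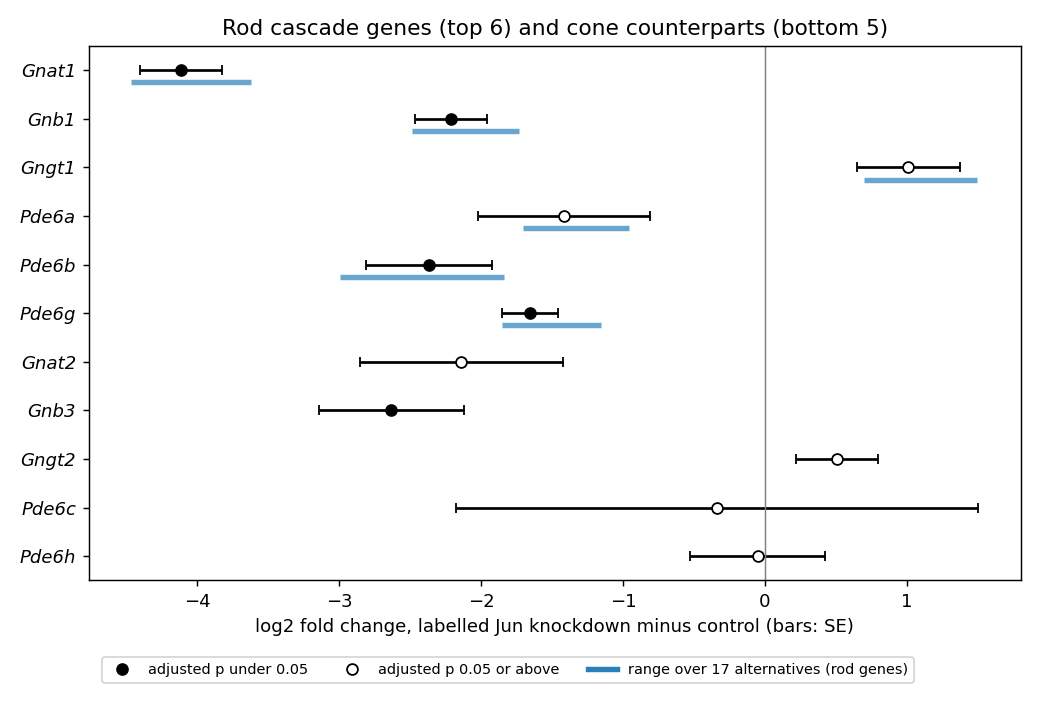
Log2 fold change, libraries labelled Jun knockdown minus control, of the 6 rod cascade genes and their 5 cone counterparts, with error bars giving the SE and filled points an adjusted p under 0.05 (edgeR, n = 3 libraries per group). Blue lines give the range over 17 alternatives for the rod genes; Gngt1 is positive over all of its line, from 0.70 to 1.50, and the other 5 are negative over all of theirs.

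Subunits of 1 complex are made to be used together, so the ratio of their RNAs within a library was compared, a measure that library scaling does not change. Per transcript length, Gngt1 RNA stood at 5.52, 1.14 and 4.11 times Gnat1 RNA in the controls and at 146, 75.7 and 126 times in the labelled libraries. On the log2 scale of CPM the Gngt1 to Gnat1 ratio was 0.78 ± 1.23 in controls and 5.94 ± 0.50 in the labelled libraries, a difference of 5.16 (n = 3 each, two-sided exact permutation p = 0.1). The smallest p that 3 against 3 libraries allow is 0.1, and the smallest Benjamini-Hochberg adjusted p obtained over the 11 ratios was 0.183. Leaving out 1 library at a time gave differences from 4.47, without control replicate 2, to 5.63.

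The other transducin ratios were apart as well. Gngt1 to Gnb1 differed by 3.31 on the log2 scale and Gnb1 to Gnat1 by 1.85, each with no overlap between groups (exact permutation p = 0.1 for both). Per length, Gnb1 stood at 2.12 ± 0.158 times Gnat1 in controls, a narrow spread, and at 8.21 ± 3.02 times in the labelled libraries (n = 3 each). Between effector and G protein, Pde6b to Gnat1 differed by 1.72 with no overlap (p = 0.1, exact permutation). That difference was 1.28 with transcript counts summed (exact permutation p = 0.1) and 0.27 with protein-coding transcripts alone, an alternative added after seeing the data (exact permutation p = 0.8).

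In the gene table, ratios inside PDE6 overlapped between groups. Pde6a to Pde6b differed by 0.87 (exact permutation p = 0.2) and Pde6g to Pde6b by 0.68 (p = 0.4, exact permutation). Per length, Pde6b stood at 32.6 ± 17 times Pde6a in controls and 16.5 ± 6.03 times in the labelled libraries (n = 3 each), although the 2 catalytic subunits form a pair. Pde6g stood at 10.3 ± 5.49 and 17.4 ± 6.68 times Pde6b. The ratios inside PDE6 depended on which transcripts were summed. With protein-coding transcripts alone Pde6g to Pde6b differed by 2.20 and Pde6a to Pde6b by 1.86, and with all transcript counts summed Pde6g to Pde6b differed by 1.26 (exact permutation p = 0.1 for each of these). Pde6a to Pde6b then differed by 0.84 (p = 0.3, exact permutation).

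**Figure D4:**
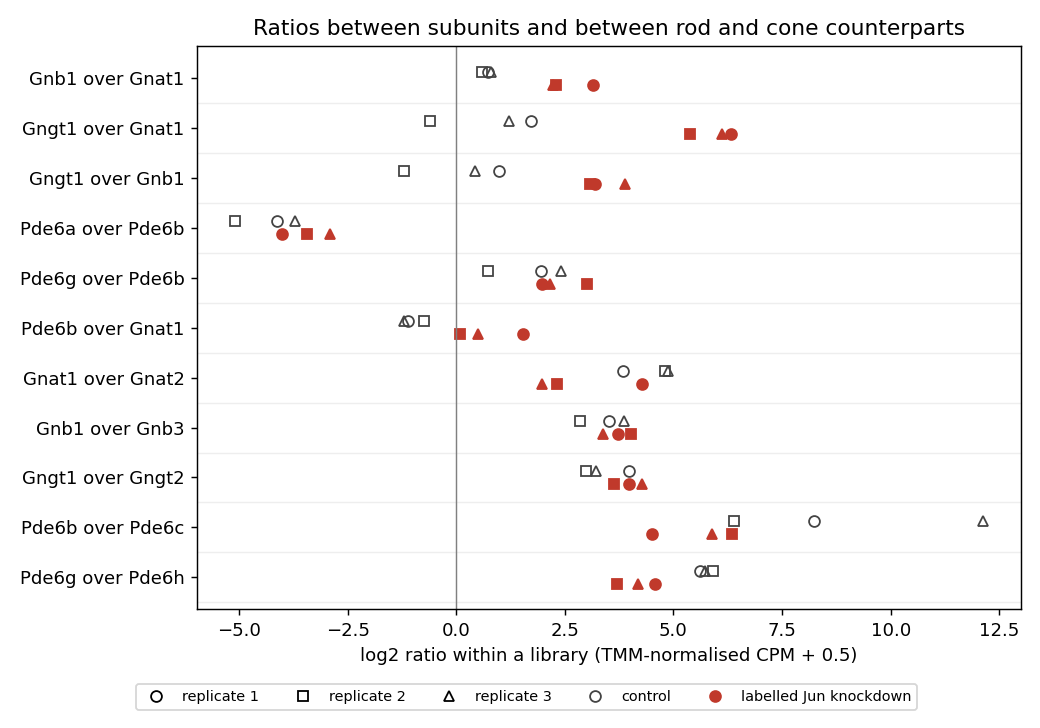
Log2 ratio of 2 genes within each library (TMM-normalised CPM plus 0.5) for 6 pairs of rod cascade subunits and 5 pairs of rod gene and cone counterpart, with open grey symbols for control and filled red symbols for libraries labelled Jun knockdown and shape giving the replicate number. Gngt1 over Gnat1 runs from -0.61 to 1.72 in controls and from 5.38 to 6.33 in the labelled libraries, while Pde6a over Pde6b, Pde6g over Pde6b, Gnat1 over Gnat2, Gnb1 over Gnb3 and Gngt1 over Gngt2 overlap.

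On a scale comparable between genes, TPM computed from the deposited transcript counts and annotated transcript lengths, the control order of means was Pde6g (15772 ± 2229), Gngt1 (13657 ± 5924), Gnb1 (9491 ± 3292), Gnat1 (4560 ± 1952), Pde6b (1906 ± 1168) and Pde6a (57.0 ± 6.01). Within controls the libraries of neighbours in this order overlapped for Pde6g and Gngt1 and for Gngt1 and Gnb1, and the remaining neighbours did not overlap. In the labelled libraries the order was Gngt1 (36760 ± 6225), Pde6g (6925 ± 1737), Gnb1 (2608 ± 580), Pde6b (423 ± 155), Gnat1 (329 ± 58.5) and Pde6a (26.3 ± 6.22), with n = 3 each. There Gnat1 and Pde6b overlapped, and no other neighbours did. On this scale Gngt1 did not overlap between groups either, at 7739 to 19586 in controls and 29580 to 40627 in the labelled libraries. The share of all genes so apart on this scale is not given here.

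The 6 genes have 26 transcripts in the deposited transcript table, all with counts in at least 1 library. Of 20 that could be tested, 7 fell and 0 rose, where 0.604% of 20706 tested transcripts passed as lower and 0.058% as higher. At an unadjusted p under 0.05, 11 were lower and 3 higher, where 3218 of the 20706 tested transcripts were under it in either direction. With DESeq2 4 passed as lower and 1 as higher, where 10.1% of transcripts passed as lower and 5.48% as higher. The 7 were Gnat1-201, Gnb1-201, Gnb1-202, Gnb1-208, Gnb1-209, Pde6b-201 and Pde6g-201, each annotated as protein coding. Their count was 3 with library totals as scaling, and from 2 to 6 when 1 library was left out, lowest without control replicate 1 (2) and also low without control replicate 2 (3), control replicate 3 (4) and labelled replicate 3 (4). Values below are TMM-normalised CPM of the transcript table, which is not on the scale of the gene table.

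Gnat1-201 held 99.8% of the transcript counts of Gnat1 in controls and 99.0% in the labelled libraries, as means. It stood at 7946, 14628 and 7040 CPM in the controls and at 404, 480 and 487 CPM in those labelled Jun knockdown, and fell by 4.43 (SE 0.31, adjusted p = 0.00332, edgeR). Gngt1-201 held 99.1% and 99.8% of Gngt1 and had a log2 fold change of 0.87 (SE 0.35, adjusted p = 0.271, edgeR), which did not pass.

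Gnb1 was spread over several transcripts. Coding transcripts Gnb1-202, Gnb1-208 and Gnb1-209 fell, with log2 fold changes of -3.02 (SE 0.43), -3.13 (SE 0.33) and -2.48 (SE 0.37) and adjusted p of 0.0341, 0.0117 and 0.0391 (edgeR). The longer Gnb1-201 stood at 287, 235 and 349 CPM in controls and below 1 count over the labelled libraries (adjusted p = 0.0117, edgeR). With the labelled group given a floor of 3 counts, 0.0594 on the TMM CPM scale, it came to 4888-fold lower. That floor covers counting error alone, and estimated counts share ambiguous reads between transcripts by a model. The calls of Gnb1-202 and Gnb1-209 ended under 7 of 10 alternatives each (adjusted p up to 0.162 and 0.247), that of Gnb1-201 under 4 (up to 0.120) and that of Gnb1-208 under 2 (up to 0.112). Gnb1-206 and Gnb1-204, both retained-intron transcripts, held at least 5% of the gene in a group. The first held 11.0% and 11.6%, with a log2 fold change of -2.56 (SE 0.48, adjusted p = 0.0675, edgeR). Gnb1-204 held 0.996%, 0.232% and 0.529% in the controls and 9.49%, 27.1% and 1.08% in the labelled libraries, with a log2 fold change of 1.74 by edgeR (SE 1.03, adjusted p = 0.4996), so labelled replicate 3 stayed near the controls.

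The transcript make-up of Pde6b differed widely between the groups. Transcripts with a retained intron held 3.03%, 4.38% and 3.82% of its transcript counts among controls and 41.7%, 47.3% and 65.7% in the labelled libraries. Every labelled library was thus far above every control, with means of 3.74% ± 0.679 and 51.6% ± 12.6 (n = 3 each, exact permutation p = 0.1). The 95% Clopper-Pearson interval of each value, which covers counting error alone, reached at most 1.12 points to either side. Of 1269 genes with a retained-intron transcript and at least 500 counts in each library, 18.0% were higher in every labelled library and 4.57% lower. The difference of Pde6b, 47.8 points, stood at percentile 96.0 of those genes, whose median difference was 1.06 points.

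Its transcripts did not move alike. Coding transcript Pde6b-201 stood at 3442, 8117 and 2826 CPM in the controls and at 428, 257 and 144 CPM in those labelled Jun knockdown. It fell by 4.12 (SE 0.56, adjusted p = 0.0308, edgeR), beside -2.37 for the whole gene, and its call ended under 6 of 10 alternatives (adjusted p from 1.22e-31 to 0.122). Those 2 values come from tables that are not on 1 scale. Gnat1-201, which held nearly all of Gnat1, had -4.43 beside -4.11 for its gene. How much of the Pde6b gap comes from this was not tested. Retained-intron transcript Pde6b-202 stood at 28.3, 36.8 and 23.3 CPM in the controls and at 295, 54.5 and 200 CPM in those labelled Jun knockdown, with no overlap (log2 fold change 2.64, SE 0.83, adjusted p = 0.150, edgeR), and did not pass. The other, Pde6b-203, stood at 79.2, 335 and 88.9 CPM and at 11.0, 176 and 76.4 CPM, with overlap (log2 fold change -0.93, SE 1.06, adjusted p = 0.747, edgeR; 0.0217 without control replicate 2). Which of the 2 retained-intron transcripts was the larger differed between the labelled libraries, Pde6b-202 in replicates 1 and 3 and Pde6b-203 in replicate 2.

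In Gnb1 the retained-intron share was 8.26%, 12.2% and 14.3% in the controls and 23.6%, 35.2% and 13.7% in the labelled libraries, which overlapped (exact permutation p = 0.2). In Gnat1 the share was far smaller and went the other way, at 0.170% ± 0.109 in controls and 0.0139% ± 0.0124 in the labelled libraries (n = 3 each, no overlap, exact permutation p = 0.1). Pde6a and Pde6g have no retained-intron transcript in the table. In Gngt1 the share was 0.907% ± 0.726 in controls and 0.193% ± 0.0715 in the labelled libraries (n = 3 each, exact permutation p = 0.2), lower on average where the share over all protein-coding genes was higher.

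Pde6a was assigned wholly to Pde6a-201 in the controls, with Pde6a-202, a shorter coding transcript, at 0 in all 3. In the labelled libraries Pde6a-202 stood at 5.73, 22.1 and 33.5 CPM, that is 7.67%, 81.1% and 49.8% of the gene. With the controls together given 3 counts as floor, 0.0230 on the TMM CPM scale, this came to 892-fold higher (adjusted p = 0.0963, edgeR), which did not pass. Pde6a-201 stood at 225, 266 and 241 CPM and at 68.9, 5.16 and 33.8 CPM, with a log2 fold change of -2.76 (SE 0.94, adjusted p = 0.185, edgeR). Estimated counts share ambiguous reads between transcripts by a model, so a value of 0 is the model's estimate and not a count of reads.

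Pde6g kept a steadier make-up. Coding transcript Pde6g-201 fell by 1.88 (SE 0.17, adjusted p = 0.00649, edgeR), and the processed transcript Pde6g-202, annotated as non-coding, had a log2 fold change of -1.20 (SE 0.28, adjusted p = 0.0921, edgeR). The call of Pde6g-201 ended with library totals (adjusted p = 0.0929) and DESeq2 (0.400), in a range of 2.24e-20 to 0.400 over 10 alternatives. Pde6g-202 held 11.8%, 9.87% and 10.2% of the gene in the controls and 16.3%, 16.4% and 14.9% in the labelled libraries, small shifts that did not overlap.

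**Figure D5:**
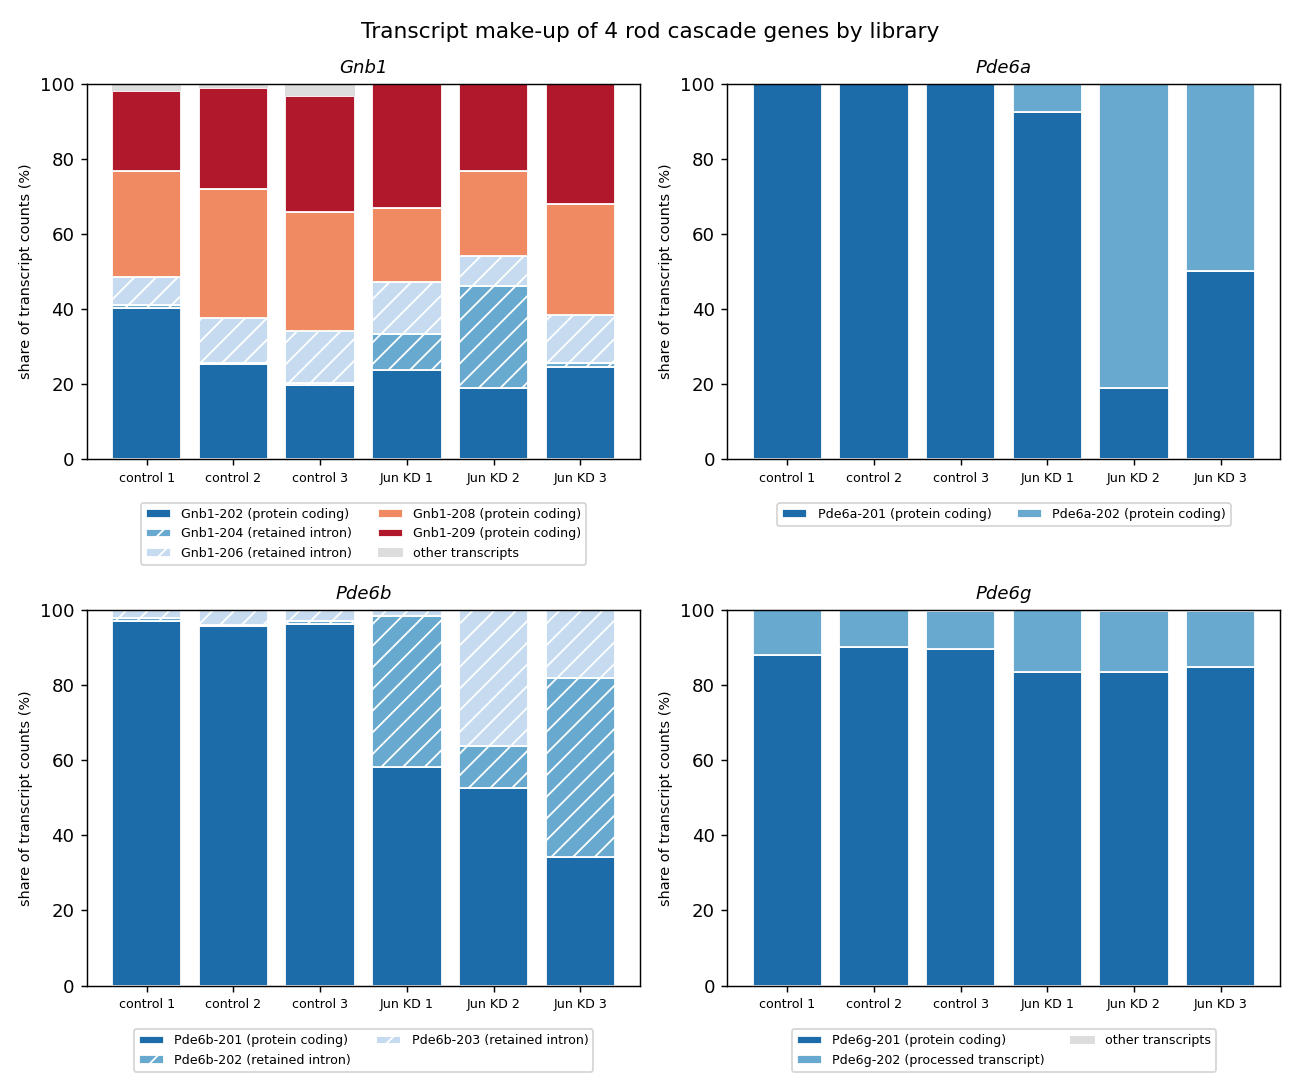
Share of the transcript counts of Gnb1, Pde6a, Pde6b and Pde6g (%) held by each transcript with at least 5% of its gene in a group mean, in each of 3 control libraries and 3 libraries labelled Jun knockdown (Jun KD), with hatching for retained-intron transcripts. Hatched blocks hold 3.03% to 4.38% of Pde6b in controls and 41.7% to 65.7% in the labelled libraries, and Pde6a-202 appears in the 3 labelled libraries.

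Transcript length and direction were also set side by side. The most counted transcript was 1183 bases long for Gngt1 (Gngt1-201), 900 for Pde6g (Pde6g-201), 2328 for Gnat1 (Gnat1-201), 2799 for Pde6b (Pde6b-201) and 4588 for Pde6a (Pde6a-201). Among all tested genes the median log2 fold change was 0.27 where that transcript was under 1000 bases, -0.85 from 1000 to 2000 bases, -0.55 from 2000 to 3000 bases and 0.34 above. Pde6g falls in the range under 1000 bases and had a log2 fold change of -1.65. Gngt1 falls in the range from 1000 to 2000 bases and had one of 1.01. For Gnb1 the most counted transcript was not the same in every library. The transcripts named for Pde6a and Pde6b were not the most counted in every labelled library either. In labelled replicate 2 Pde6a-202 held 81.1% of Pde6a beside 18.9% for Pde6a-201. In labelled replicate 3 Pde6b-202 held 47.6% of Pde6b beside 34.3% for Pde6b-201. The part of length in these values was not tested.

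The cone counterparts were compared because sorted rods carry some cone RNA and because they are built on the same plan. Of the 5, 1 passed, Gnb3, the cone beta subunit, which fell by 2.63 (SE 0.51, adjusted p = 0.0444, edgeR) from 1257 ± 798 to 203 ± 65.1 CPM (n = 3 each). It passed with neither DESeq2 nor limma-voom. Over all tested genes 1.35% passed as lower by edgeR. Gnat2, the cone alpha subunit, stood at 433, 372 and 203 CPM in the controls and 19.6, 87.1 and 122 CPM in those labelled Jun knockdown, without overlap (log2 fold change -2.14, SE 0.72, adjusted p = 0.177, edgeR). Gngt2, the cone gamma subunit, had a positive sign like its rod paralogue (0.51, SE 0.29, adjusted p = 0.403, edgeR), at 1218 ± 321 and 1731 ± 256 CPM. Alpha, beta and gamma subunits thus had the same sign in both sets. However, neither gamma subunit passed, the groups overlapped for both of them, and Gnat2 did not pass either. Pde6c stood at 27.6 ± 40.2 and 21.8 ± 24.0 CPM, and Pde6h at 219 ± 42.7 and 212 ± 65.9 CPM (adjusted p = 0.941 and 0.967, edgeR).

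Rod to cone ratios of the G protein subunits overlapped between groups: the log2 ratio differed by -1.65 for Gnat1 to Gnat2 (exact permutation p = 0.2), 0.29 for Gnb1 to Gnb3 (p = 0.5) and 0.56 for Gngt1 to Gngt2 (p = 0.3). When protein-coding transcripts alone were summed, that of Gnat1 to Gnat2 turned to 0.62 (exact permutation p = 0.8) and that of Gnb1 to Gnb3 became 2.56 (p = 0.3, exact permutation). Those of the phosphodiesterase subunits were lower in every labelled library, by 1.59 for Pde6g to Pde6h and by 3.35 for Pde6b to Pde6c (exact permutation p = 0.1 for each). The last rests on low Pde6c counts, at 8.95, 73.7 and 0.0758 CPM in the controls, and was -1.75 without control replicate 3 and -4.61 without control replicate 2.

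Genes that act around the cascade were counted from lists chosen for their role, with earlier results of these data known. Beside each list count stand the shares over all tested genes. By edgeR 1.35% passed as lower and 0.32% as higher. With DESeq2 the shares were 7.38% and 5.52%, and with limma-voom 2.46% and 0.991%. Of 7 rod shutoff genes, 3 fell and 0 rose: Sag (arrestin, -3.13, SE 0.15), Pdc (phosducin, which binds the transducin beta-gamma pair, -2.34, SE 0.22) and Rcvrn (recoverin, -2.13, SE 0.27), with adjusted p of 7.06e-05, 0.00244 and 0.00820 (edgeR). Their list median was -1.69, beside -0.12 over all tested genes, and 1 passed as lower with DESeq2 and 2 with limma-voom. Among 7 genes of the channel, the exchanger and guanylate cyclase, 1 fell, the channel subunit Cngb1 (-2.60, SE 0.49, adjusted p = 0.0409, edgeR), with a list median of -1.23. Guca1b, a cyclase activator, stood at 134 ± 54.0 and 7.74 ± 3.07 CPM (n = 3 each, adjusted p = 0.0553, edgeR).

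Folding, assembly and lipid carrier genes of transducin and PDE6 had a median of -1.79 over 24 genes, of which 3 fell and 0 rose. Aipl1, the photoreceptor chaperone of PDE6, fell by 4.18 (SE 0.45, adjusted p = 0.00418, edgeR) from 917 ± 131 to 50.6 ± 17 CPM (n = 3 each). Cct7, a subunit of the chaperonin that folds G protein beta subunits, fell by 6.28 (SE 0.82, adjusted p = 0.0103, edgeR). Ric8b, a chaperone of some G protein alpha subunits, fell by 2.52 (SE 0.49, adjusted p = 0.0435, edgeR). Whether Ric8b acts on transducin alpha was not measured. With DESeq2 4 of the list passed as lower and with limma-voom 2, where 7.38% and 2.46% of all tested genes did. At an unadjusted p under 0.05, 11 were lower and 1 higher, where 2159 of 12815 genes were under it in either direction.

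Of 11 regulators of rod genes, all had a negative log2 fold change and 1 passed: the nuclear receptor gene Nr2e3, a repressor of cone genes in rods, fell by 4.23 (SE 0.41, adjusted p = 0.00246, edgeR). Crx and Otx2, homeobox factors of photoreceptors, stood at -1.56 (SE 0.43, adjusted p = 0.103) and -1.92 (SE 0.55, adjusted p = 0.115, edgeR). With DESeq2 2 of the list passed as lower and with limma-voom 0, where 7.38% and 2.46% of all tested genes did. At an unadjusted p under 0.05, 6 were lower, where 2159 of 12815 genes were under it in either direction.

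The G protein and phosphodiesterase genes used outside the rod and cone cascades gave 0 calls among 10 alpha, 2 beta and 5 gamma subunits and 10 phosphodiesterases that could be tested. Over all tested genes 1.35% passed as lower and 0.32% as higher, so 0 calls in lists this small lie near the general share. Their list medians were -0.10, -3.27, -0.17 and 0.27. At an unadjusted p under 0.05 there were 1 higher alpha subunit, 1 lower beta subunit and 1 higher phosphodiesterase, the same counts as with DESeq2, and limma-voom passed 1 phosphodiesterase as higher. Pde8a, the gene with the smallest p among them, stood at 0.0286 ± 0.0248 and 9.29 ± 6.84 CPM (n = 3 each, adjusted p = 0.0797, edgeR), far below the rod subunits.

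For each member the genes with the most similar profile over the 6 libraries were sought among 7978 other tested genes with a mean of at least 10 CPM, by the root mean square difference of log2 CPM after each gene was centred. Nearest to Gnat1 were Nr2e3 (0.137), Ldha, a lactate dehydrogenase gene (0.231), and Aldoa, an aldolase gene (0.277). Gnb1 had Rdh12 (0.181), a photoreceptor retinol dehydrogenase gene, Ric8b (0.226) and Pfdn2 (0.230) nearest, and Pde6b had Gnb3 (0.190), Ptgr2 (0.252) and Ttc5 (0.263). Those of Gngt1 were Rpa3 (0.0809), Tmsb15l (0.110) and Mrps33 (0.115), none of which passed the test. Nearest to Pde6a were Ggps1 (0.0779), Arl6ip1 (0.104) and Uba2 (0.115), and to Pde6g Mrpl2 (0.0642), Sec22b (0.133) and Psmd1 (0.153).

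Between members the smallest distance was that of Pde6b and Gnb1 (0.281), where Gnb1 ranked 5 among all genes from Pde6b and Pde6b ranked 13 from Gnb1. Pde6g lay 0.428 from Gnb1 and 0.430 from Pde6a. Gnat1 stood 0.974 to 1.36 from the other members that were lower. Gngt1 lay 1.38 to 2.69 from every other member, at ranks from 2631 to 6194 among all genes. With 6 libraries that differ mainly by group, these distances largely describe the size of the group difference.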

How the data were processed

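RNA of flow-sorted rods was measured in 3 control libraries and 3 libraries labelled Jun knockdown. Per the labels' protocols, SMART-seq v4 gave full-length cDNA and Nextera XT the libraries; no step that marks strand is stated. The authors deposited estimated counts per gene and per transcript and a table of normalised gene values. Named per the submitters' processing notes, without role, are Trimmomatic 0.39, kallisto 0.44.0 and edgeR 3.28.1. Deposited coordinates match GRCm38, a build not given in the sources used here. One deposited table, named CPM, sums to 1250540 to 2385210 by library and was handled as signal on a scale of the authors. Members' gene counts differed from their transcript sums by -17.4% to 50.3%, so the tables are not on 1 scale.

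Rounded estimated counts went through filterByExpr and TMM to the quasi-likelihood test of edgeR 4.0.16 (R 4.3.3) with group as the one term and Benjamini-Hochberg adjustment over 12815 genes or 20706 transcripts and a threshold of 0.05. SE is the log2 fold change over the square root of F. Levels are TMM-normalised CPM, mean ± SD. Ratios used a pseudocount of 0.5. Levels per length used annotated GENCODE vM21 transcript lengths, which cover 98.9% of transcript counts. Permutation tests were exact and two-sided. Functions were tested on simulated counts. Alternatives were other scalings and filters, DESeq2 1.42.0, limma-voom and limma-trend (limma 3.58.1), thinning, a replicate block, other denominators and leaving out each library; ratios from protein-coding transcripts were added after seeing the data. Intervals and floors cover counting error only.

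Members and gene lists were chosen with earlier results of these data known. The rule for names took all members, their transcripts with at least 5% of the gene in a group (Gnb1-201 was added after its values were seen), the cone counterparts, at most the 3 genes of smallest p in each other list, and the 3 nearest profiles. Kdr and Pecam1 were added after their values were seen. Amacrine markers summed to 13.2 to 50.2 CPM in controls and 14.9 to 62.0 CPM in labelled libraries, ganglion cell markers to 3.38 to 48.2 and 1.73 to 15.6 CPM, and pigment epithelium markers to 31.1 to 128 and 0.633 to 70.2 CPM (Sncg, Best1 and Mlana at 0 in labelled libraries).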

Additional observations from a re-analysis of the deposited data

How the results depend on the processing

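All 6 members kept the sign of their log2 fold change under all 17 alternatives. The number of members past the threshold, 4, became 1 with DESeq2 and 0 with limma-voom, and ranged from 2 to 4 when 1 library was left out. Tests with no filter gave far smaller adjusted p. The number of transcripts past it, 7, became 3 with library totals as scaling and 5 with DESeq2, and ranged from 2 to 6 when 1 library was left out. The summed share of the 6 members, a difference of -0.0246 percentage points, became 0.0667 with transcript counts and 0.139 as a share of protein-coding counts, and ranged from -0.254 to 0.338 when 1 library was left out. None of these shares carries TMM scaling, and as TMM-normalised CPM the sum was lower in every labelled library than in every control. With protein-coding transcripts alone the Gnat1 to Gnat2 ratio, of 11, changed sign, from -1.65 to 0.62. That sum also took Pde6b to Gnat1 from 1.72 to 0.27, Pde6g to Pde6b from 0.68 to 2.20, Pde6a to Pde6b from 0.87 to 1.86 and Gnb1 to Gnb3 from 0.29 to 2.56. Of the tested transcripts, 2 changed sign when 1 library was left out: Pde6b-203 (from -1.84 to 0.0217) and Gnb1-205 (from -1.25 to 2.02). Over all tested genes, same-numbered libraries of the 2 groups did not deviate together (correlations 0.000422, 0.00804 and -0.0151). With so few libraries per group, these correlations do not show whether same-numbered libraries shared a litter or a day of preparation. With a replicate block 4 members passed, Gngt1 in place of Pde6b, and 5 transcripts. The SE of Gngt1 was 0.361 without that block and 0.145 with it (edgeR). The cause of these changes was not tested. Depth limits the labelled libraries most, and low values such as those of Pde6c and Pde6a-202 cannot be read closely.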
